A study of Drosophila melanogaster with 6 samples.

Results

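The genes described here encode the syntrophins and the dystrophin-associated complex of *Drosophila melanogaster*. They are *Syn1* (FBgn0037130) and *Syn2* (FBgn0034135), the syntrophin genes; *Dys* (FBgn0260003), dystrophin; *Dg* (FBgn0034072), dystroglycan; *Dyb* (FBgn0033739), dystrobrevin; and *Scgdelta* (FBgn0025391) and *Scgbeta* (FBgn0038042), sarcoglycans. These 7 of the 16493 genes in the deposited tables were matched by symbol. *Syn1* here is the syntrophin-like gene and not synapsin, whose symbol is *Syn*. The group was chosen with the lower level of *Syn1* in *Appl*- brains already known, so the genotype difference of *Syn1* is given as a description and without a test. The other 6 genes encode known parts of the same complex.

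Dystrophin links the actin cytoskeleton beneath the plasma membrane to dystroglycan, a transmembrane receptor for laminin and other matrix proteins. Sarcoglycans sit in the membrane beside dystroglycan, and dystrobrevin and the syntrophins bind dystrophin from within the cell, where syntrophins act as adaptors that hold channels and signaling enzymes at the membrane. The complex is best known from muscle, where its loss causes muscular dystrophy, and its genes are also used by neurons and glia of the fly brain.

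The study compared brains of flies that lack Appl, the fly ortholog of the amyloid precursor protein, with control brains by single-cell 3′ RNA sequencing. The *Appl*- flies had the genotype Appl[d] w[*], and the controls were w1118. There were 3 libraries of each genotype, each made from brains of 20 male and 20 female flies aged for 10 days. The *Appl*[d] allele removes the central portion of the gene and leaves its first and last exons, and the sources used here do not say that the strains share a background, so the deletion and the strain cannot be told apart. They also do not say whether the libraries of a genotype came from separate cultures, so p-values measure only the spread between these libraries.

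The libraries held between 11282730 and 56384733 unique molecular identifiers (UMIs, each standing for 1 captured transcript). Barcodes were kept where 200 or more genes were detected and mitochondrial counts did not exceed 10%, which left 25008 of 67362 barcodes, 13181 from *Appl*- brains and 11827 from controls. Control replicate 1 stood apart, with 84.9% of its barcodes over the mitochondrial limit, against 32.2% to 64.2% in the *Appl*- libraries and 39.0% and 47.5% in the other control libraries. Any 2 libraries shared 2 to 16 barcodes among kept cells. Doublets were not removed. The deleted gene followed the labels: *Appl* had 204, 255 and 233 normalized CPM (UMIs scaled to a common library total, adjusted by TMM) in *Appl*- libraries, against 2061, 2318 and 2060 in controls. Because parts of the gene remain and 3′ tags were counted, these UMIs do not show intact *Appl*.

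Cells were grouped into 44 clusters from variable genes that did not include any of the 7 genes. Of these clusters, 40 expressed neuronal markers such as *elav*, *nSyb* and *brp* and were called neuron-like. One cluster of 301 cells led by astrocyte genes was called glia-like, and there was one fat body-like cluster, one photoreceptor-like cluster, and one unnamed cluster of 393 cells led by *EbpIII*, *Ppn* and *regucalcin*, with *SPARC* and *Col4a1* among its leading genes. Names rest on rebuilt clusters. Levels within clusters are given for the 27 clusters with at least 20 cells in every library.

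UMIs of 6 of the 7 genes were found in all 44 clusters, and *Scgdelta* had 0 UMIs in 18 of the 44. Between 95.7% and 98.8% of the UMIs of each came from neuron-like cells, which made up 24044 of the 25008 kept cells. Clusters 19, 24, 33 and 36, which were not neuron-like, held 1121043, 1146275, 523560 and 279744 UMIs of all genes, against 14214481 in cluster 0 alone. Neuron-like cells thus held most UMIs of any kind, and the shares are not read as a preference for neurons. In all, 20567 UMIs of *Syn1* were counted, 7254 of *Syn2*, 13472 of *Dys*, 10858 of *Dg*, 18103 of *Dyb*, 846 of *Scgdelta* and 5506 of *Scgbeta*. The 8 muscle markers, of a tissue known for this complex, summed to 12.6 to 16.1 CPM in *Appl*- libraries and 12.4 to 18.5 CPM in controls, and *bt* alone held 870 of their UMIs, against 29 of *Mhc*, the muscle myosin gene. Annotated genes overlap *Syn1*, *Dys*, *Dyb* and *Scgbeta* on the opposite strand. The one with many UMIs was *pps*, on the opposite strand from *Scgbeta*, with 3396 UMIs against 5506 of *Scgbeta*, and the sources used here do not state the strand setting of the counting, so reads of this pair cannot be told apart.

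*Syn1* was the member that differed between genotypes. Summed over all kept cells, *Syn1* had 128, 143 and 133 normalized CPM in *Appl*- libraries, against 354, 332 and 389 in controls. The libraries of the genotypes were fully separated, at 134 ± 7.70 against 358 ± 29.1 normalized CPM (SD, n = 3 each). The log2 fold change was -1.41 (standard error 0.0964), which is a level 0.375 times that of controls. This contrast chose the group, so nothing is read from it beyond its size. It was -1.42 without control replicate 1. In sums over all cells of a brain, fewer cells of a type and less RNA per cell cannot be told apart. Values within clusters are given below as a description, and the part of each was not tested.

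**Figure D1:**
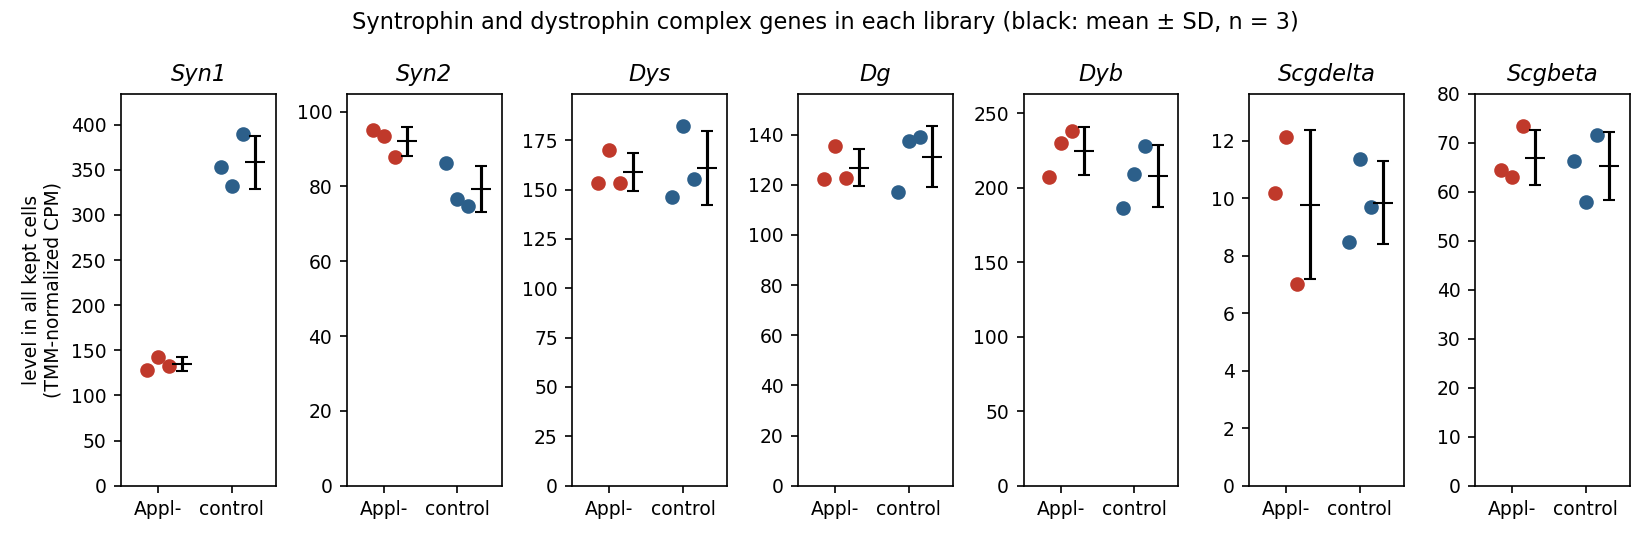
TMM-normalized CPM (vertical axes, each from 0) of the 7 genes over all kept cells, with a point for each *Appl*- library (red, left) and each control library (blue, right) and the mean ± SD in black. *Syn1* lies near 134 in *Appl*- libraries and near 358 in controls, *Syn2* is slightly higher in all 3 *Appl*- libraries, and the libraries of the other 5 genes overlap.

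The other syntrophin gene moved in the opposite direction by a small amount that did not pass the test. *Syn2* had 94.9, 93.6 and 87.7 normalized CPM in *Appl*- libraries, against 86.2, 76.7 and 74.6 in controls. The 3 *Appl*- libraries were above the 3 controls, as such separation in either direction was seen for 26.8% of the 8510 genes tested. Its log2 fold change of 0.22 (standard error 0.0847) had an adjusted p of 0.196 over all genes tested (Benjamini-Hochberg) by the quasi-likelihood test of edgeR. Unless a block is named, the fits here hold genotype alone and leave out the replicate number. A call required an adjusted p below 0.05 and a small minimum fold, without which 509 genes rather than 507 passed over all cells.

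*Dys*, the gene of the cytoskeletal linker itself, had 153, 170 and 153 normalized CPM in *Appl*- libraries and 146, 182 and 155 in controls. *Dg*, its membrane receptor, had 122.4, 135 and 122.8 in *Appl*- libraries and 117, 137 and 139 in controls. For both genes the libraries of the genotypes overlapped, with log2 fold changes of -0.02 (standard error 0.106, adjusted p = 0.949) for *Dys* and -0.05 (standard error 0.0966, adjusted p = 0.849) for *Dg*, both by edgeR. *Dyb*, whose protein binds dystrophin and syntrophin, had 207, 230 and 238 normalized CPM in *Appl*- libraries and 186, 209 and 228 in controls. These values also overlapped, and the log2 fold change was 0.11 (standard error 0.105, edgeR adjusted p = 0.619).

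The sarcoglycan genes overlapped between genotypes as well. *Scgbeta* had 64.4, 63.1 and 73.4 normalized CPM in *Appl*- libraries and 66.3, 57.8 and 71.6 in controls. *Scgdelta*, the member with the fewest UMIs, had 10.2, 12.1 and 7.004 in *Appl*- libraries and 8.48, 11.4 and 9.69 in controls. Their log2 fold changes were 0.04 (standard error 0.106) and 0.00 (standard error 0.217), with edgeR adjusted p values of 0.906 for *Scgbeta* and 0.997 for *Scgdelta*. The sarcoglycan gene outside the group, *Scgalpha*, averaged 47.7 ± 2.53 normalized CPM in *Appl*- libraries and 51.5 ± 4.05 in controls (SD, n = 3 each), with an edgeR adjusted p of 0.564.

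Thus 0 of the 6 partners of *Syn1* were called over all cells, where 507 of 8510 genes (5.96%) were called, and 910 were called with the replicate number as a block, still with 0 of the 6. *Syn2* alone of the 6 had an unadjusted edgeR p under 0.05, as had 21.3% of the 8510 genes, so nothing is read from that count. DESeq2 also called 0 of the 6. Without control replicate 1 the log2 fold changes of the 6 lay between -0.12 and 0.28, the highest being *Syn2* (edgeR adjusted p = 0.0870), and again 0 were called. With standard errors near 0.1 on the log2 scale for 5 of the 6 genes, changes as large as that of *Syn1* were not seen in them, while the precision for *Scgdelta* was lower.

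The same held in neuron-like cells summed per library. *Syn1* had 128, 143 and 132 normalized CPM there in *Appl*- libraries, against 374, 350 and 394 in controls, a log2 fold change of -1.47 (standard error 0.0944). Of the 6 partners, 0 were called by edgeR and by DESeq2, with log2 fold changes between -0.10 and 0.18. By edgeR, 494 of 8215 genes (6.01%) were called. An unadjusted edgeR p under 0.05 was found for 0 of the 6 and for 19.7% of the 8215 genes.

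In the glia-like cluster, *Syn1* had 68.1, 89.2 and 81.9 normalized CPM in *Appl*- libraries and 235, 146 and 342 in controls. The libraries did not overlap, and the log2 fold change was -1.53 (standard error 0.3995). These sums rest on 171 UMIs. The 6 neuron markers summed to 4999, 6784 and 6142 CPM in this cluster in *Appl*- libraries and 4669, 6305 and 6363 in controls, against 9030 to 11056 CPM in neuron-like cells of the 6 libraries. The 3 cortex glia markers summed to 412, 629 and 241 CPM there in *Appl*- libraries and 2256, 2649 and 678 in controls, and the 6 fat body markers to 892, 1733 and 497 CPM in *Appl*- libraries and 3241, 10118 and 2148 in controls. The part of these other cell types in the glia-like values was not tested, and RNA of glia and RNA of neurons cannot be told apart within it. *Syn2*, *Dys*, *Dg* and *Dyb* were tested there, with log2 fold changes between 0.26 and 0.54, and 0 of the 4 were called by edgeR or by DESeq2, with 0 at an unadjusted p under 0.05. *Scgdelta*, with 4 UMIs, and *Scgbeta*, with 34, were too low to test. Of 2364 genes tested in this cluster by edgeR, 20 (0.846%) were called and 13.3% had an unadjusted p under 0.05.

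Whether the genotype effect differed between glia-like and neuron-like cells was tested with both sums of each library fitted together. Of the 2364 genes, 0 (0%) were called, 243 had an unadjusted p under 0.05, and no other tool was run on this comparison. The log2 difference of the *Syn1* effect, glia-like over neuron-like, was -0.03 (standard error 0.355). *Dg* had the largest difference among its tested partners, 0.39 (standard error 0.342, edgeR adjusted p = 0.727), and 0 of the 4 had an unadjusted p under 0.05.

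*Syn1* was lower in *Appl*- libraries within each cluster examined. In all 27 clusters the 3 *Appl*- libraries lay below the 3 controls, where 10.5% to 20.2% of the genes tested in a cluster were separated in either direction. The log2 fold change of *Syn1* ran from -2.58 to -0.89 with a median of -1.49. This repeats the contrast that chose the group and is a description. The fits put it past the threshold in 23 of the 27, beside 788 of 89920 pairs of cluster and gene (0.876%) called lower, and nothing is read from that count. The 4 clusters where it was not called were the glia-like cluster 24, the monoaminergic-like cluster 25 led by *ple*, *DAT* and *Vmat*, cluster 21 led by *CG18598*, *slp2* and *slp1*, and cluster 23 led by *RluA-1* and *CG17193*.

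The size of the difference varied between clusters. It was largest in cluster 30, where *Syn1* had 100.3, 59.5 and 79.4 normalized CPM in *Appl*- libraries and 478, 312 and 601 in controls. It was smallest in cluster 23, with 198, 136 and 189 in *Appl*- libraries and 394, 253 and 294 in controls. The standard errors of these log2 fold changes were 0.370 and 0.263, and the difference between clusters was not tested. In cluster 5, a Kenyon cell-like cluster of mushroom body neurons, *Syn1* had 110, 132 and 109 normalized CPM in *Appl*- libraries and 320, 314 and 378 in controls, close to the median of the clusters.

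**Figure D2:**
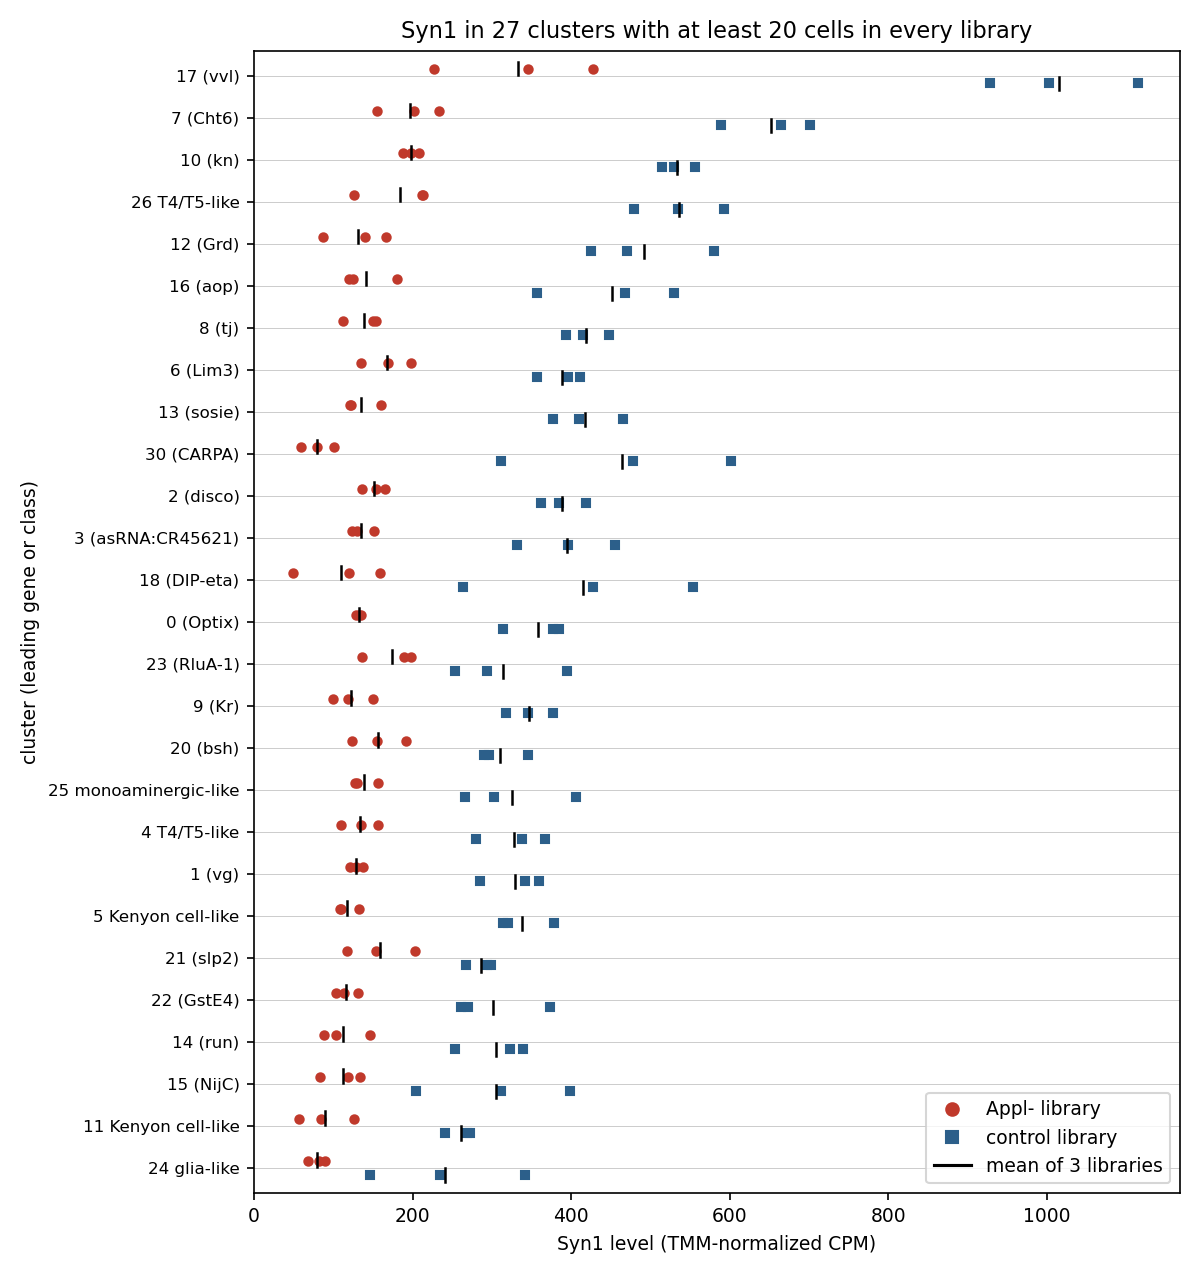
TMM-normalized CPM of *Syn1* (horizontal axis) in 27 clusters, ordered by level, with a red circle for each *Appl*- library, a blue square for each control library and a black tick for the mean of 3. The circles lie left of the squares in every cluster, from cluster 17 at the top to the glia-like cluster 24 at the bottom.

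The partners of *Syn1* did not follow it in these clusters. Of 125 pairs of cluster and partner gene tested, 0 were called by edgeR or by DESeq2, where 0.876% of all pairs were called lower and 1.09% higher. An unadjusted p under 0.05 was found for 4 of the 125, and for 11.2% of all pairs. *Syn2* was tested in 20 clusters with log2 fold changes between -0.42 and 0.69, above 0 in 11 and below 0 in 9. *Dys* was tested in 27, between -0.62 and 0.26, above 0 in 12. *Dg* was below 0 in 20 of its 27 clusters, with a median of -0.13, and *Dyb* was above 0 in 15 of 27, with a median of 0.10 and all 3 *Appl*- libraries above all 3 controls in 6. Such separation in either direction was seen for 10.5% to 20.2% of the genes tested, depending on the cluster. *Scgdelta* could be tested in 5 clusters and *Scgbeta* in 19.

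The largest fitted change of a partner was that of *Scgbeta* in cluster 16, led by *aop*, *trol* and *vn*. It had 89.7, 25.7 and 27.7 normalized CPM there in *Appl*- libraries and 112, 63.0 and 132 in controls, from 59 UMIs. The libraries overlapped, and the log2 fold change of -1.15 (standard error 0.5005) was not called (edgeR adjusted p = 0.473). In cluster 23, both *Dg* and *Dyb* had an unadjusted p under 0.05. These neurons, led by *RluA-1*, *CG17193* and *Pka-C3*, had *Dg* at 233, 160.3 and 168 normalized CPM in *Appl*- libraries and 200.2, 331 and 414 in controls. Control replicate 1 lay among the *Appl*- libraries and the log2 fold change was -0.78 (standard error 0.292, edgeR adjusted p = 0.301). Without control replicate 1 the log2 fold change was -1.02 and *Dg* was called there (edgeR adjusted p = 0.0309), the only such call of a partner when any 1 library was left out. *Dyb* had 268, 364 and 335 normalized CPM in the same cluster in *Appl*- libraries and 177, 233 and 245 in controls, with no overlap, and a log2 change of 0.58 (standard error 0.232) and an edgeR adjusted p of 0.346. The sums rest on 223 UMIs of *Dg* and 225 of *Dyb*.

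**Figure D3:**
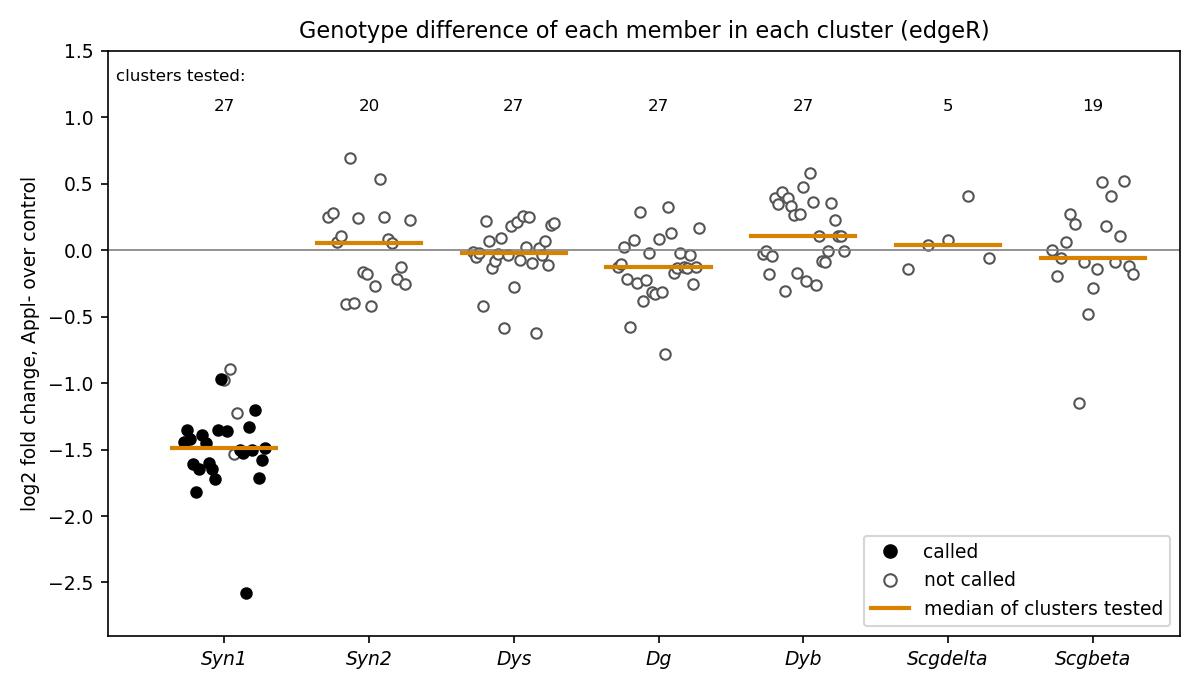
Log2 fold change, *Appl*- over control (vertical axis), of each gene in each cluster where it was tested, with called changes filled, others open, and the median of clusters in orange. The 27 points of *Syn1* lie between -2.58 and -0.89, and the points of the other 6 genes lie on both sides of 0 with none filled.

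Barcodes over the mitochondrial limit, which none of these sums include, gave a further view of the same libraries. Over those barcodes alone *Syn1* had 91.1, 114 and 102 normalized CPM in *Appl*- libraries, against 282, 247 and 283 in controls, a log2 fold change of -1.40 (standard error 0.133). These barcodes come from the same brains and are not further replicates. The log2 fold changes of the 6 partners there ran from -0.09 for *Scgbeta* to 0.35 for *Scgdelta*. Their edgeR adjusted p values lay between 0.606 for *Scgdelta* and 0.980 for *Dg*. *Syn2*, which had been higher in all *Appl*- libraries among kept cells, had 67.3, 58.8 and 68.3 in *Appl*- libraries and 68.1, 60.7 and 62.7 in controls, and its libraries overlapped.

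Across cell types, the genes of the complex were spread in different ways. These levels are CPM of the library total in each cluster, averaged over the 6 libraries, and they are descriptions of clusters rather than tests. *Scgdelta* was the most restricted. It was highest in cluster 15, neuron-like cells led by *NijC*, *CG15394* and *Nos* with raised *Gad1* and *VGAT*, markers of GABAergic neurons. *Scgdelta* had 107, 140.1 and 135 CPM there in *Appl*- libraries and 110.1, 125 and 135 in controls. It followed in cluster 8, led by *tj*, *VGlut* and *Lmx1a*, at 49.7 ± 23.1 CPM and in the Kenyon cell-like cluster 11 at 21.6 ± 13.0 (SD, n = 6 libraries each), and the median of the 27 clusters was 2.76 CPM. The larger Kenyon cell-like cluster 5 had 0.465 ± 1.14 CPM, from 5 UMIs.

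Cluster 15 was the only one of the 27 whose lowest library was above the highest library of the next cluster for *Scgdelta*. In 9 of the 27 clusters *Scgdelta* had 0 UMIs among 8335109. For each of these clusters on its own, the level that 3 counts would give was compared with the level in cluster 15. The level in cluster 15 was higher by 21.8-fold (cluster 30) to 58.7-fold (cluster 10). The 9 were picked for having 0 UMIs, so no ratio to their pool is given. Smaller clusters also carried it. Cluster 38, of 74 neuron-like cells with raised *VAChT*, *ChAT* and *ChT*, averaged 156 ± 44.3 CPM. Cluster 35, of 125 cells led by *opa*, *tim* and *CG8641*, averaged 129.9 ± 48.6 CPM (SD, n = 6 each). Clusters 8, 15, 35 and 38 together held 6.40% of kept cells and 47.0% of the 846 *Scgdelta* UMIs.

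*Scgbeta*, the other sarcoglycan gene of the group, did not share this restriction. It ranged from 33.7 CPM in the glia-like cluster to 88.5 ± 8.33 in cluster 15, a 2.63-fold span, and its median over clusters was 64.4. No cluster differed from its neighbour in the order of levels by this measure for *Scgbeta*, nor for the other 5 genes, whose neighbouring clusters overlapped throughout. *Scgalpha* was also even, between 32.6 and 60.7 CPM.

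*Syn1* was highest in cluster 17, neurons led by the transcription factor gene *vvl*, at 374, 198 and 305 CPM in *Appl*- libraries and 779, 899 and 1009 in controls. Clusters 7 and 10 followed, at 401 ± 236 and 341 ± 173 CPM over the 6 libraries of both genotypes. The lowest of the 27 was the glia-like cluster at 143 ± 103 CPM. Among smaller clusters, cluster 31, of 175 cells led by *CG5835*, *vvl* and *bab1*, had the highest level, with 352, 611 and 434 CPM in *Appl*- libraries and 1295, 1311 and 1449 in controls. The genotypes were separated there, and the cluster, with 19 cells in its smallest library, was not tested.

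*Syn2* was arranged differently from *Syn1*. It was highest in cluster 0, the largest cluster and led by *Optix*, at 116 ± 15.2 CPM, and in cluster 9, led by *Kr*, at 108 ± 11.2, and lowest in cluster 21 at 27.7 ± 12.2 (SD, n = 6 libraries each). The Pearson correlation of the 2 syntrophin genes over the 27 cluster levels was 0.19, given as a description of clusters that share libraries.

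*Dys* was highest among the 27 in cluster 20, neuron-like cells led by *bsh* with raised *VAChT* and *ChAT*, at 288 ± 55.0 CPM. It was lowest in cluster 14 at 90.0 ± 20.8 CPM. Cluster 41, of 28 cells led by *RunxA*, had 1506, 1324 and 1081 CPM of *Dys* in *Appl*- libraries and 438, 1497 and 476 in controls, from 106 UMIs, and was too small to test. In the unnamed cluster 19, *Dys* had 127, 190 and 61.2 CPM in *Appl*- libraries and 364, 377 and 603 in controls, which did not overlap. That cluster had 12 cells in *Appl*- replicate 3 and was not tested.

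*Dg* was highest in cluster 23 at 229 ± 95.3 CPM and in the Kenyon cell-like cluster 11 at 179.5 ± 45.4, and lowest in cluster 21 at 75.6 ± 28.4. *Dyb* was highest in the T4/T5-like cluster 26 at 415 ± 57.5 CPM, followed by cluster 11 at 402 ± 38.8 and cluster 13, led by *sosie* and *RunxB*, at 367 ± 104. It was lowest in the glia-like cluster at 131 ± 55.3. T4 and T5 cells are motion-sensing neurons of the optic lobe. The larger T4/T5-like cluster 4 had *Dyb* at 223 ± 18.2 CPM, near the median of 219 over clusters. The strongest correlations between genes of the complex over cluster levels were 0.54 for *Syn1* and *Dys* and 0.50 for *Dyb* and *Scgbeta*, and *Scgdelta* had negative values with 5 of the other 6 genes, the lowest being -0.23 with *Syn1*.

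**Figure D4:**
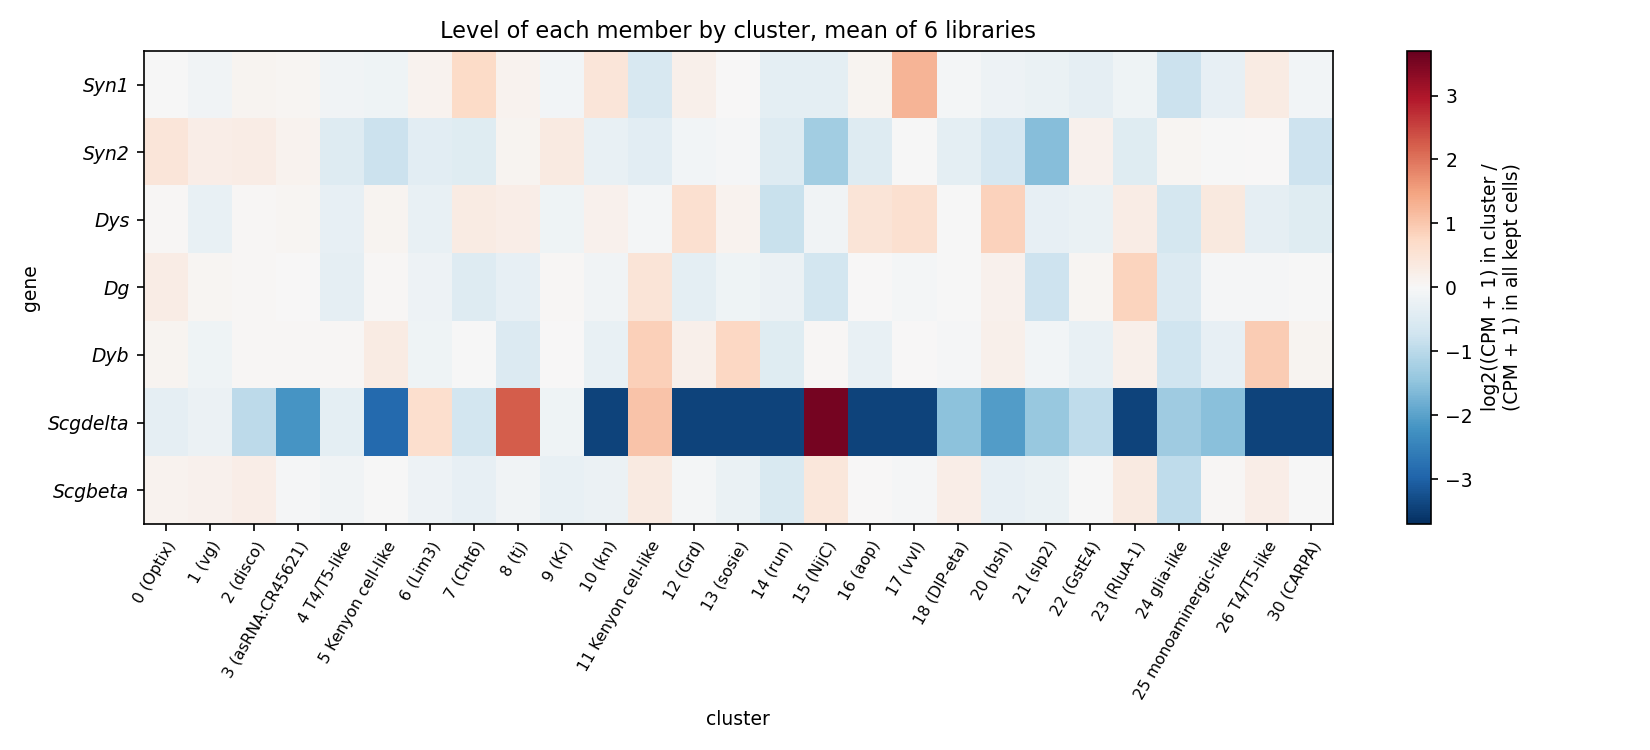
Level of each gene (rows) in 27 clusters (columns), as log2 of CPM + 1 in the cluster over CPM + 1 in all kept cells, mean of the 6 libraries, with red above and blue below. *Scgdelta* ranges from 0 UMIs in 9 clusters to 125 CPM in cluster 15, whereas the other 6 genes span 2.63-fold to 4.19-fold between their highest and lowest cluster.

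For the 6 genes with at least 20 CPM over all cells, the genes most like them over the 27 clusters were found by Pearson correlation of log2(CPM + 1) among the other 8509 genes tested. For *Syn1* these were *lncRNA:CR44272* at 0.73, *Yippee* at 0.72 and *Liprin-gamma* at 0.71. For *Syn2* they were *jub* at 0.84, *Frq2* at 0.82 and *IA-2* at 0.78. *Dys* was nearest to *ttv*, *Rb97D* and *Capr*, between 0.73 and 0.70, *Dg* to *CG12531*, *PlexA* and *mop*, between 0.78 and 0.67, *Dyb* to *CG2865*, *wapl* and *CG13921*, between 0.74 and 0.67, and *Scgbeta* to *CG6664*, *side-VII* and *CG10483*, between 0.72 and 0.67. None of these 18 genes was called between genotypes over all cells by edgeR. Of all 8510 genes tested 5.96% were called, so nothing is read from that count.

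The genes beside *Syn1* on chromosome arm 3L gave little to compare. The 5 annotated genes on each side, among them *CG7370*, *CG14565* and *eg*, had between 0 and 41 UMIs in all kept cells together, against 20567 of *Syn1*, and none of the 10 was high enough to test. *Syn*, the synapsin gene that is easily taken for *Syn1*, averaged 564 ± 27.02 normalized CPM in *Appl*- libraries and 642 ± 55.5 in controls over all cells (SD, n = 3 each). Its log2 fold change of -0.19 was not called (edgeR adjusted p = 0.321), and it was called lower in 1 of 27 clusters, the T4/T5-like cluster 26. Its fitted value was below 0 in 26 of the 27, with an unadjusted p under 0.05 in 10 and all 3 *Appl*- libraries below all 3 controls in 16. Over all pairs of cluster and gene, 11.2% had an unadjusted p under 0.05. Separation in either direction was seen for 10.5% to 20.2% of the genes tested, depending on the cluster.

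Genes that act with the complex were examined as lists over all kept cells, where the median log2 fold change of all 8510 genes was -0.00. Of 8 genes with a known link to dystrophin or syntrophin (*cv-c*, *Cdc42*, *wit*, *Nos*, *drk*, *Cam*, *par-1* and *Actn*), all were tested and 0 were called by edgeR, with 0 at an unadjusted p under 0.05 and a median log2 fold change of -0.02. Among all 8510 genes 5.96% were called and 21.3% had an unadjusted p under 0.05. *Nos*, nitric oxide synthase, whose mammalian counterpart binds syntrophin, averaged 104 ± 10.7 normalized CPM in *Appl*- libraries and 105 ± 14.6 in controls (SD, n = 3 each). Of the enzymes that add O-mannose to dystroglycan, *rt* had 5.58, 7.84 and 7.11 normalized CPM in *Appl*- libraries and 8.60, 10.5 and 10.2 in controls, without overlap. Its log2 fold change of -0.51 was not called (edgeR adjusted p = 0.146), and *tw* was too low to test.

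Matrix genes, which include the laminin ligands of dystroglycan, were examined too. Of 8 listed, 6 were tested, 2 fell, and 5 had an unadjusted p under 0.05, with a median log2 fold change of -1.94. Over all 8510 genes 5.96% were called and 21.3% had an unadjusted p under 0.05. *vkg*, a collagen IV gene, had 2.26, 1.77 and 2.80 normalized CPM in *Appl*- libraries and 13.8, 6.41 and 6.33 in controls, a log2 fold change of -1.98 (standard error 0.372, edgeR adjusted p = 0.0287). *LanB2*, the laminin gamma chain gene, had 65 UMIs in all and a log2 fold change of -2.74 (standard error 0.616, edgeR adjusted p = 0.0481), and it was not called with the replicate number as a block (adjusted p = 0.0636) or without any 1 library, control replicate 1 included (0.0632 to 0.214). *Col4a1*, *LanB1* and *LanA* had log2 fold changes of -1.86, -1.89 and -2.17 and were not called.

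Summed markers of hemocytes, surface glia and cortex glia were also lower in *Appl*- libraries. The sums of astrocyte-like, ensheathing, fat body, photoreceptor and muscle markers overlapped between genotypes. Of the UMIs of *vkg* 119 of 474 were in neuron-like cells, and of *Col4a1* 188 of 1070, whereas *trol*, the perlecan gene, which was not called, had 2892 of 3413 there. The 6 hemocyte markers, *Col4a1* among them, summed to 63.7, 52.1 and 70.2 CPM in *Appl*- libraries and 137, 99.3 and 95.7 in controls. *Pxn* alone held 5130 of their UMIs, with 59.6, 47.7 and 52.1 CPM in *Appl*- libraries and 82.2, 67.7 and 56.0 in controls, which overlapped. In neuron-like cells the 6 summed to 63.1, 49.8 and 50.6 CPM in *Appl*- libraries and 88.1, 68.0 and 57.9 in controls. This sum is thus not read as hemocyte content. The 5 surface glia markers, *vkg* among them, summed to 11.3, 14.5 and 8.504 CPM in *Appl*- libraries and 54.3, 22.1 and 19.8 in controls. Each of these 11 markers had UMIs in both genotypes, *He* the fewest with 6, and the genotypes were fully separated for 3 of the 5 and 4 of the 6. Over all cells, 26.8% of the 8510 genes tested were separated in either direction. The unnamed cluster 19 held 54, 54 and 12 cells in *Appl*- libraries and 107, 133 and 33 in controls. The 3 cortex glia markers summed to 13.4, 12.3 and 5.60 CPM in *Appl*- libraries and 71.5, 76.3 and 15.6 in controls, and the fat body-like cluster held 1, 2 and 0 cells in *Appl*- libraries and 70, 4 and 42 in controls. The part of cortex glia and fat body in these values was not tested. Without the unnamed cluster the log2 fold change of *vkg* was -0.86 (edgeR adjusted p = 0.396), *LanB2* was too low to test, and that of *Syn1* was -1.44.

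Of the other receptors and scaffolds, *mew*, an alpha integrin subunit that binds laminin, had 34.6, 33.0 and 35.1 normalized CPM in *Appl*- libraries and 21.6, 24.3 and 25.6 in controls. It rose by 0.52 on the log2 scale (standard error 0.0958, edgeR adjusted p = 0.0267), and did not overlap between genotypes. *rhea*, the talin gene that couples integrins to actin, had 147, 170 and 146 normalized CPM in *Appl*- libraries and 110, 118 and 102 in controls. It also rose, by 0.49 on the log2 scale (standard error 0.0983, edgeR adjusted p = 0.0348). The other 3 of 5 integrin genes were not called, where 5.96% of all 8510 genes were called.

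Of 6 other membrane scaffold genes, 5 were tested and 1 was called, and 3 of the 5 had an unadjusted edgeR p under 0.05. Among all 8510 genes 5.96% were called and 21.3% had an unadjusted p under 0.05. *l(2)gl*, a polarity gene, had 1.89, 3.11 and 3.34 normalized CPM in *Appl*- libraries and 7.42, 9.004 and 5.55 in controls. It fell, the log2 fold change being -1.40 (standard error 0.286, edgeR adjusted p = 0.0372), while in barcodes over the mitochondrial limit alone its log2 fold change was -0.01. *dlg1*, *scrib*, *CASK* and *X11L* were not called. The libraries of the genotypes were separated for *scrib*, lower in *Appl*- (log2 fold change -0.39, edgeR adjusted p = 0.0943). They were also separated for *dlg1*, higher in *Appl*- (0.23, edgeR adjusted p = 0.221). *mew* was no longer called without control replicate 2 or without any 1 of the *Appl*- libraries (adjusted p from 0.0652 to 0.120), *l(2)gl* in the same 4 fits (0.0974 to 0.131), and *rhea* in those and without control replicate 3 (0.0544 to 0.122). *vkg* was no longer called without any 1 of the *Appl*- libraries (0.0869 to 0.135). Without the 5% of cells with most UMIs, taken as possible doublets, the log2 fold change of *vkg* was -1.18 (adjusted p = 0.179) and that of *l(2)gl* -0.95 (0.0651), neither called.

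**Figure D5:**
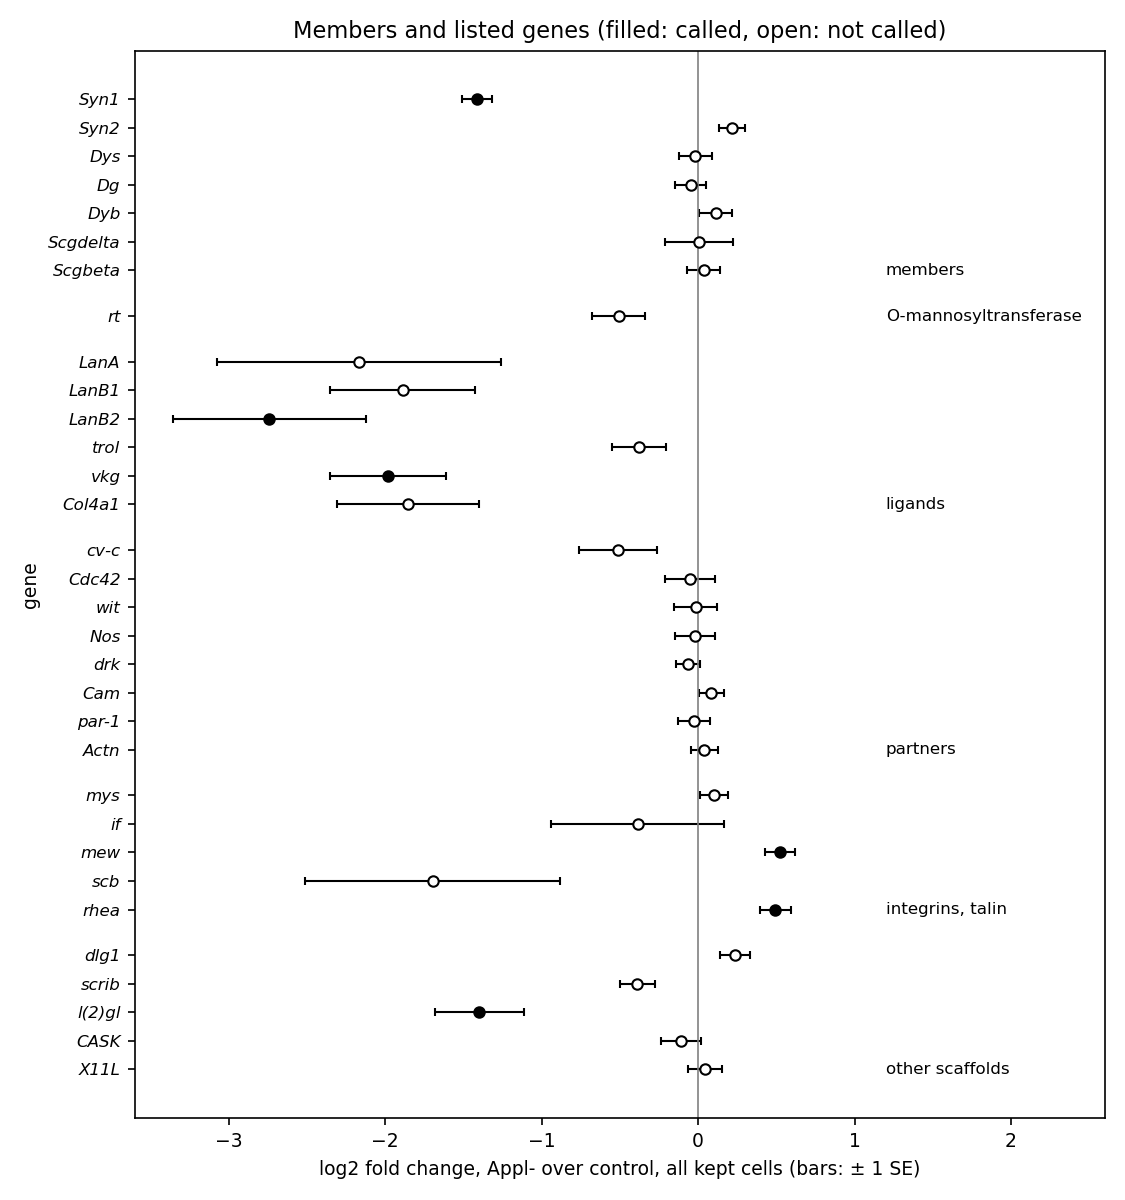
Log2 fold change, *Appl*- over control, over all kept cells (horizontal axis, bars ± 1 standard error) of the 7 genes and of the listed genes that were tested, with called changes filled. *Syn1* at -1.41 stands among partners near 0, the matrix genes other than *trol* are at the left with wide bars, and *mew* and *rhea* are at the right.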

How the data were processed

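The deposited files hold UMI counts per gene and barcode, which the authors made with Cell Ranger 6.0.0 per the labels; the genome build and strand setting are not given in the sources used here. The counts also list transposable element insertions, which were left out. Kept cells were clustered with scanpy 1.11.5 and leidenalg 0.10.2 (Python 3.11.15) on 2000 variable genes without the 7 genes, *Scgalpha* and *Appl*. A cluster was neuron-like with at least 4 of 6 neuron markers in 50% of its cells and no other class with 3 or more raised markers, a rule set after the clusters were seen. Counts were summed per library and tested with edgeR 4.0.16 (quasi-likelihood test, TMM, low-count filter, genotype only; R 4.3.3), with Benjamini-Hochberg adjustment over all genes tested, after the code was tested on simulated data. DESeq2 1.42.0 was an alternative. Libraries differed beyond sampling noise (chi-square per degree of freedom from 11.0 to 70.6). Deviations of libraries with the same replicate number correlated at 0.30, 0.25 and 0.37, all over 0.1, so the numbers were taken to pair the libraries. The main fits and their p-values leave this pairing out. A fit with the replicate number as a block was run as an alternative. Members and lists were chosen with earlier results of these data known. The text names the 7 genes, *Scgalpha*, *Appl*, *Syn*, the pathway lists, the 5 genes on each side of *Syn1* and the 3 genes most like each member; the leading genes of clusters and the clusters singled out were chosen after their values were seen. Names and neighbours came from the BDGP6.54 annotation (release 115), which matched 16447 of 16493 gene IDs. *Mint1* was not found under that symbol.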

Additional observations from a re-analysis of the deposited data

How the results depend on the processing

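No called value changed sign. Of 33 log2 fold changes of single genes, 12 had another sign under at least 1 alternative, none of them called; over all cells these were *Dys* (-0.08 to 0.23), *Dg* (-0.12 to 0.01), *Scgbeta* (-0.09 to 0.10) and *Scgdelta* (-0.18 to 0.35). Over all cells and in neuron-like cells 0 of the 6 genes other than *Syn1* were called under any alternative run, and the log2 fold change of *Syn1* over all cells, a description, lay between -1.47 and -1.36. Over all cells 507 genes were called, against 949 with DESeq2, 910 with the replicate block, and 161 to 607 when any 1 library was left out. Barcodes over the mitochondrial limit alone, an alternative chosen after seeing the data, gave 279. In glia-like cells 0 of the 7 were called, with *Scgdelta* and *Scgbeta* too low to test. There 1, *Syn1*, was called with no filter on low counts (1) and with up to 20% mitochondrial counts (1). Calls of the other 6 genes within clusters numbered 0, and 0 to 1 when any 1 library was left out, the 1 being *Dg* in cluster 23. The replicate block, which rests on shared replicate numbers, changed no call of the 7 genes. *Syn1* was called lower in 18 clusters at Leiden resolution 0.5 and 31 at resolution 2, where more clusters were tested. These counts and the glia-like calls of *Syn1* repeat the contrast that chose the group, and nothing is read from them. The level in the highest cluster over that in all cells moved to 1.99 for *Scgbeta* with up to 20% mitochondrial counts, against 1.34, and to 3.04 for *Dyb* at resolution 2, against 1.92. The cause was not tested. No glia-like cluster formed at resolution 0.5, so glia-like values have none there. Depth limits *Scgdelta*, tested in 5 of 27 clusters, and the glia-like cluster.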
